A study of Mus musculus with 9 samples.

Results

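The ErbB receptors and the growth factors that bind them were followed in the mouse submandibular salivary gland after part of the gland had been cut away. The set was chosen by name as 10 genes: the receptors Egfr, Erbb2 and Erbb3, the ligands Areg, Ereg, Hbegf, Tgfa, Btc and Epgn, and the neuregulin Nrg1. Each name was matched to the transcript cluster of that gene, which is the array's probe summary for its transcripts, and 9 of the 10 were matched among 22206 tested transcript clusters. Areg was not analysed here, because the probe annotation used here pairs no transcript cluster with that name. Each of the 9 matched genes had 1 transcript cluster, so no choice between clusters was needed.

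The study compared 3 groups of 3 biological replicates, hybridised to Clariom S arrays as bulk gland RNA. All mice were female, of strain C57BL6/J and 12 weeks old, with no allele or agent named in the labels. The groups were glands 3 days after mock surgery, glands 3 days after partial resection and glands 14 days after partial resection. Mock-operated mice healed for 3 days only, so on day 14 the resection and the time since surgery cannot be told apart.

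Cells receive epidermal growth factor (EGF) and related signals through 4 receptor tyrosine kinases, which work as pairs. EGFR binds EGF, amphiregulin, transforming growth factor alpha, epigen, betacellulin, epiregulin and HB-EGF. ERBB3 and ERBB4 bind neuregulins, ERBB4 also binds several of the EGFR ligands, and ERBB2 has no known ligand of its own and serves as a partner. The ligands are made as membrane proteins, and cell-surface proteases release them. In the developing salivary gland this family is known for its part in branching growth, and the adult rodent submandibular gland is known for storing large amounts of EGF in its granular convoluted tubules.

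Medians over the tested transcript clusters ran from 5.09 to 5.24 on the log2 scale, and the correlation between 2 arrays of a group was 0.985 to 0.99. The labelled tissue was checked against its markers: 11 of 12 serous acinar genes and 8 of 8 measured granular tubule genes lay above the 95th percentile of the negative control rows on all 9 arrays. Of these lists, 4 serous acinar and 3 granular tubule genes sat within 0.001 of the array's highest value on at least 1 array, a ceiling at which a change may not be measurable. Genes of other cell types differed between the groups. On day 3, 11 of 11 measured macrophage genes, 6 of 8 fibroblast genes and 8 of 8 genes of dividing cells rose against mock (limma, adjusted p under 0.05). Over all transcript clusters, 4.92% rose. Dcpp3 is 1 of the 2 measured genes of a list set for sublingual mucous cells. It read 6.28, 8.17 and 5.80 in mock, 16.70, 7.80 and 19.69 in day 3 resected and 17.06, 19.71 and 14.05 in day 14 resected glands. Its differences from mock did not pass (adjusted p = 0.0563 and 0.143 by limma). Galnt12, the other measured gene of that list, lay below the negative control median on all 9 arrays, from 3.26 to 3.94. Dcpp3 alone does not show that mucous cells differed. In bulk RNA, fewer cells of a type and less RNA per cell cannot be told apart.

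None of the 9 measured members passed the test in any of the 3 comparisons. With limma's moderated test and Benjamini-Hochberg adjustment over all transcript clusters at a threshold of 0.05, 0 of 9 were called between day 3 resected and mock glands, where 6.27% of all transcript clusters were called (4.92% higher and 1.36% lower). The count was 0 of 9 between day 14 resected and mock glands, where 0.153% of transcript clusters were called (0.0991% higher and 0.054% lower). It was 0 of 9 between day 14 and day 3 resected glands, where the share called was 6.28% (1.4% higher and 4.88% lower on day 14). At an unadjusted p under 0.05, the counts were 1, 0 and 1 of 9 in these comparisons, and Nrg1 was the member both times. The corresponding shares of all transcript clusters were 18.6%, 8.18% and 18.9%.

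A p that misses the threshold does not show that levels stayed the same, so the intervals are given as well. Of 27 member differences, 25 had a 95% interval (not adjusted for the number of tests) that lay within 1 log2 unit of 0. Such an interval was found for 68.7% of all transcript clusters on day 3 against mock, 78.3% on day 14 against mock and 68.3% between the resected groups. Both member intervals that reached further belonged to Nrg1. Of the 9 members, 4 lay below the negative control median on all 9 arrays, as given below. Differences near background are compressed, so a narrow interval says less there. The 3 comparisons share groups, so the 27 differences are not independent. Differences are on the deposited log2 scale, which is not a calibrated fold change. The median difference of the members was -0.08 on day 3 against mock, beside -0.06 over all transcript clusters, and 0.00 on day 14 against mock, beside -0.00 over all. Between the resected groups the medians were 0.17 for the members and 0.06 for all.

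**Figure D1:**
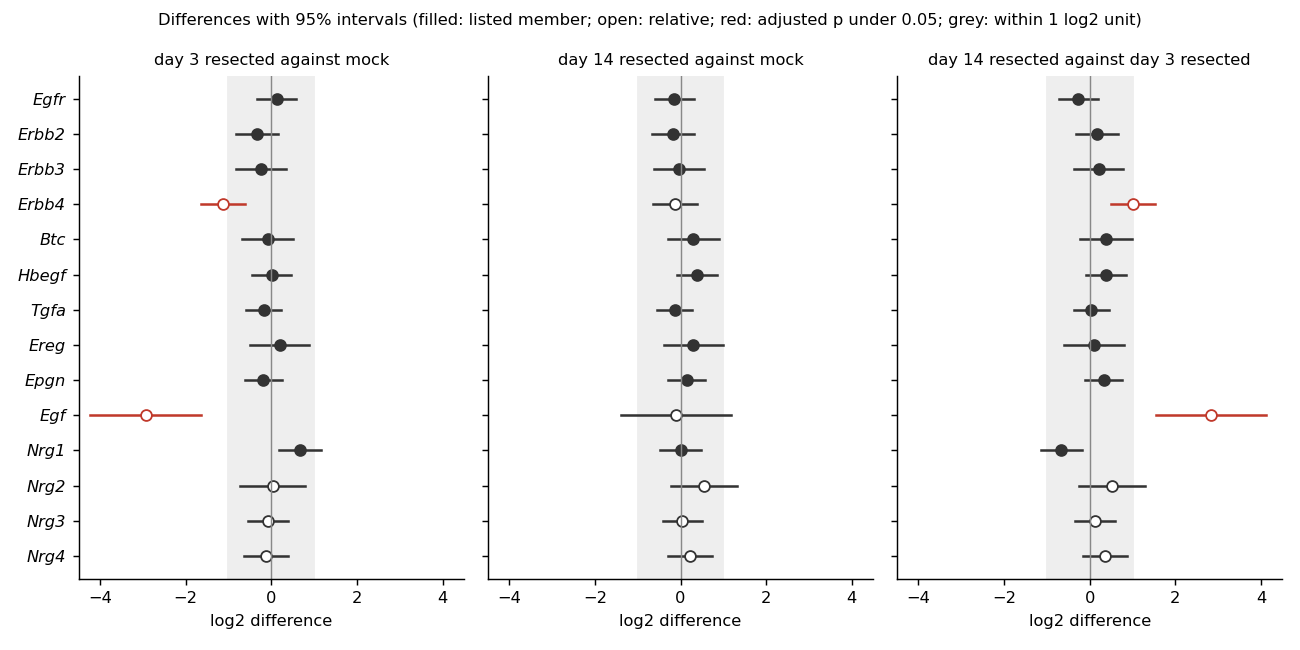
Log2 differences (x axis) of the ErbB receptors, their ligands and the neuregulins in the 3 comparisons, with 95% intervals as horizontal lines; filled points are listed members, open points are relatives outside the list, red marks an adjusted p under 0.05, and the grey band spans 1 log2 unit either way. All 9 members are black, with Nrg1 farthest from 0 on day 3 (0.67) and between the resected groups (-0.66), while Erbb4 (-1.14) and Egf (-2.94) lie to the left on day 3 and return to the right between day 3 and day 14.

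How far a level could be measured at all differed among the members, which bears on what a small difference means. The table holds no detection calls, so each member was set against the 5222 negative control rows of the same array, whose median was 4.41 to 4.77 and whose 95th percentile was 8.21 to 8.52. Control rows have other probes than the genes, so this is a rough guide to background and not a detection limit. The control medians differed between the groups, with 4.41 to 4.52 in mock, 4.65 to 4.77 in day 3 resected and 4.51 to 4.61 in day 14 resected glands. The day 3 resected arrays lay above the others. This difference was 0.25 on day 3 against mock, 0.0928 on day 14 against mock and -0.15 between the resected groups. It was larger in size than the difference of 7, 2 and 2 of the 9 members in these comparisons. Its part in the members' differences was not tested. Tgfa, Ereg, Hbegf and Epgn lay below the control median on all 9 arrays. Egfr, Erbb2, Erbb3, Btc and Nrg1 lay above it on all 9 arrays. Erbb3 exceeded the 95th percentile on 2 arrays, and none of the other 8 measured members did so on any array.

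**Figure D2:**
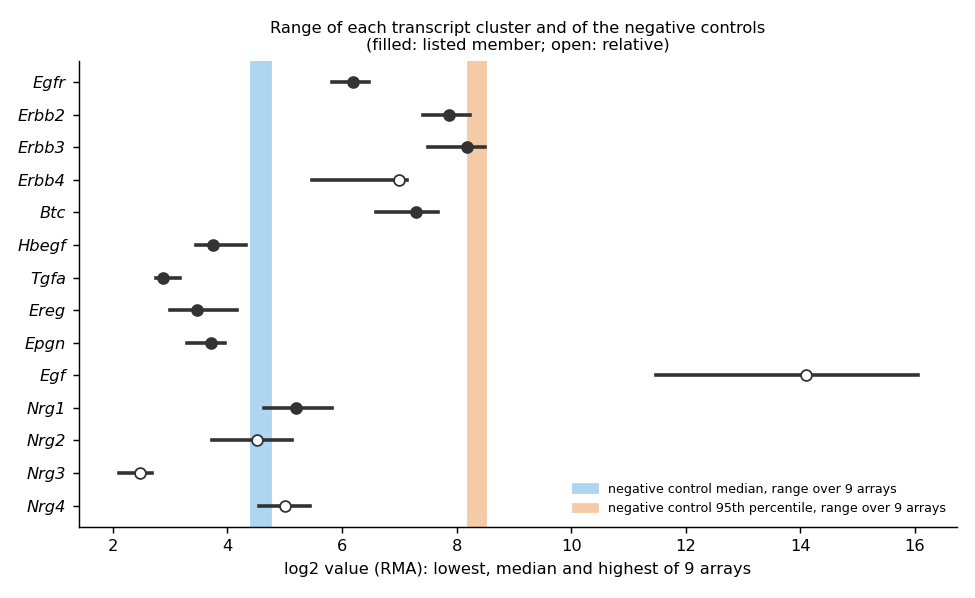
Log2 value (x axis) of each family gene as the lowest, median (point) and highest of the 9 arrays, with the range over arrays of the negative control median (blue band, 4.41 to 4.77) and of the negative control 95th percentile (orange band, 8.21 to 8.52). Tgfa, Ereg, Hbegf and Epgn lie wholly left of the blue band; positions of different genes are not comparable with each other, since their probes differ.

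Among the receptors, Egfr, which binds EGF and most of the ligands listed here, kept to a narrow range. Its log2 values were 6.19, 6.22 and 6.11 in mock glands, 5.98, 6.44 and 6.47 in day 3 resected glands, and 5.82, 6.22 and 6.06 in day 14 resected glands. The groups overlapped, and the lowest array in each resected group was replicate 1. The difference from mock was 0.12 ± 0.21 (SE; 95% interval -0.34 to 0.59) on day 3 and -0.14 ± 0.21 (-0.61 to 0.32) on day 14. After quantile normalisation the day 3 difference was -0.031, so no direction can be given for it. The transcript cluster of Egfr stands for 2 RefSeq transcripts, which are not told apart.

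Erbb2, the partner receptor without a ligand, had its lowest group mean on day 3. Values were 7.75, 8.23 and 8.12 in mock glands, 7.42, 7.88 and 7.79 in day 3 resected glands, and 7.62, 8.09 and 7.88 in day 14 resected glands. The groups overlapped, and in each of them the arrays ranked alike, with replicate 1 lowest and replicate 2 highest. The labels do not say whether same-numbered arrays are paired. Over 18 alternative settings, including a fit that allows for replicate number, the day 3 difference ran from -0.48 to -0.20. The adjusted p by limma ran from 0.268 to 0.748. The difference from mock was -0.34 ± 0.23 (95% interval -0.84 to 0.15; adjusted p = 0.48 by limma) on day 3 and -0.17 ± 0.23 (-0.67 to 0.32) on day 14.

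Erbb3, a neuregulin receptor whose own kinase activity is weak, varied most among the day 14 arrays. It read 8.18, 8.05 and 8.25 in mock glands and 7.73, 8.18 and 7.85 in day 3 resected glands. On day 14 it read 8.49, 7.51 and 8.38, with replicate 2 below every other array of the study. The difference from mock was -0.24 ± 0.27 (95% interval -0.82 to 0.33) on day 3 and -0.03 ± 0.27 (-0.61 to 0.54) on day 14. Without day 14 resected replicate 2 the latter was 0.27, so its direction rested on that array.

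The remaining receptor of the family, Erbb4, is outside the list, and it did pass. It lay above the negative control median on all 9 arrays and above the control 95th percentile on 0. Its values were 7.13, 7.02 and 7.07 in mock glands, 6.26, 6.07 and 5.48 in day 3 resected glands, and 6.70, 7.13 and 6.99 in day 14 resected glands. All day 3 resected arrays lay below all others, and the day 14 arrays overlapped with mock. Erbb4 fell by 1.14 ± 0.24 against mock on day 3 (95% interval -1.65 to -0.62; adjusted p = 0.0108 by limma) and was higher by 1.00 ± 0.24 on day 14 than on day 3 after resection (adjusted p = 0.0227). On day 14 the difference from mock was -0.13 ± 0.24 (-0.65 to 0.38).

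The Erbb4 calls were sensitive to single arrays. Without day 3 resected replicate 3, the array with the lowest value, the day 3 difference was -0.91 with an adjusted p of 0.0545 by limma. Over all 18 alternative settings it ran from -1.30 to -0.91, with adjusted p from 0.00688 to 0.0545. The call between the resected groups ended in 4 of the 9 fits without 1 array: without day 3 resected replicate 2 (1.07, adjusted p = 0.0523) or 3 (0.78, 0.108), and without day 14 resected replicate 2 (0.91, 0.0917) or 3 (0.98, 0.0766).

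Erbb4 was set against the listed receptors with a value chosen after the levels were seen. It was Erbb4 minus the mean of Egfr, Erbb2 and Erbb3 on each array. This value was -0.38 ± 0.12 in mock glands (SD, n = 3), -1.37 ± 0.55 in day 3 resected glands and -0.40 ± 0.24 in day 14 resected glands. The day 3 resected arrays (-1.89 to -0.79) lay below the mock arrays (-0.48 to -0.24) and the day 14 arrays (-0.61 to -0.14). A two-sided exact permutation test gave p = 0.1 for day 3 resected against mock and for the resected groups against each other, the smallest that 3 against 3 arrays allow, and p = 0.9 for day 14 against mock (0.15, 0.15 and 0.9 after Benjamini-Hochberg adjustment over the 3).

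Signs of other cell types are given beside the fall of Erbb4. Of 13 measured duct genes, 1 fell on day 3 (the sodium channel subunit Scnn1g) and 1 rose (the keratin Krt19), beside 1.36% and 4.92% of all transcript clusters. Krt19 lay above the negative control median on 2 of the 9 arrays and above the control 95th percentile on 0. In all, 11 of the 13 had a negative difference, with a median of -0.24. An unadjusted p under 0.05 was found for 5 of the 13, beside 18.6% of all transcript clusters. Of the same 13 genes, 4 were higher on day 14 than on day 3 after resection (Scnn1g, Foxi1, Elf5 and Cftr) and 0 lower, with a median of 0.38. The shares of all transcript clusters there were 1.4% and 4.88%. Duct list means per array were 10.36 to 10.65 in mock, 9.96 to 10.23 in day 3 resected and 10.39 to 10.64 in day 14 resected glands. Macrophage list means were 8.18 to 8.81 in mock and 11.37 to 11.80 in day 3 resected glands, and fibroblast list means were 9.14 to 9.82 and 11.51 to 12.80. The part of these shifts in the result was not tested. No marker was at 0 on this log2 scale, which does not show that each was detected. For example, 4 of 9 mast cell and 3 of 6 skin keratinocyte genes lay below the negative control median on all 9 arrays.

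**Figure D3:**
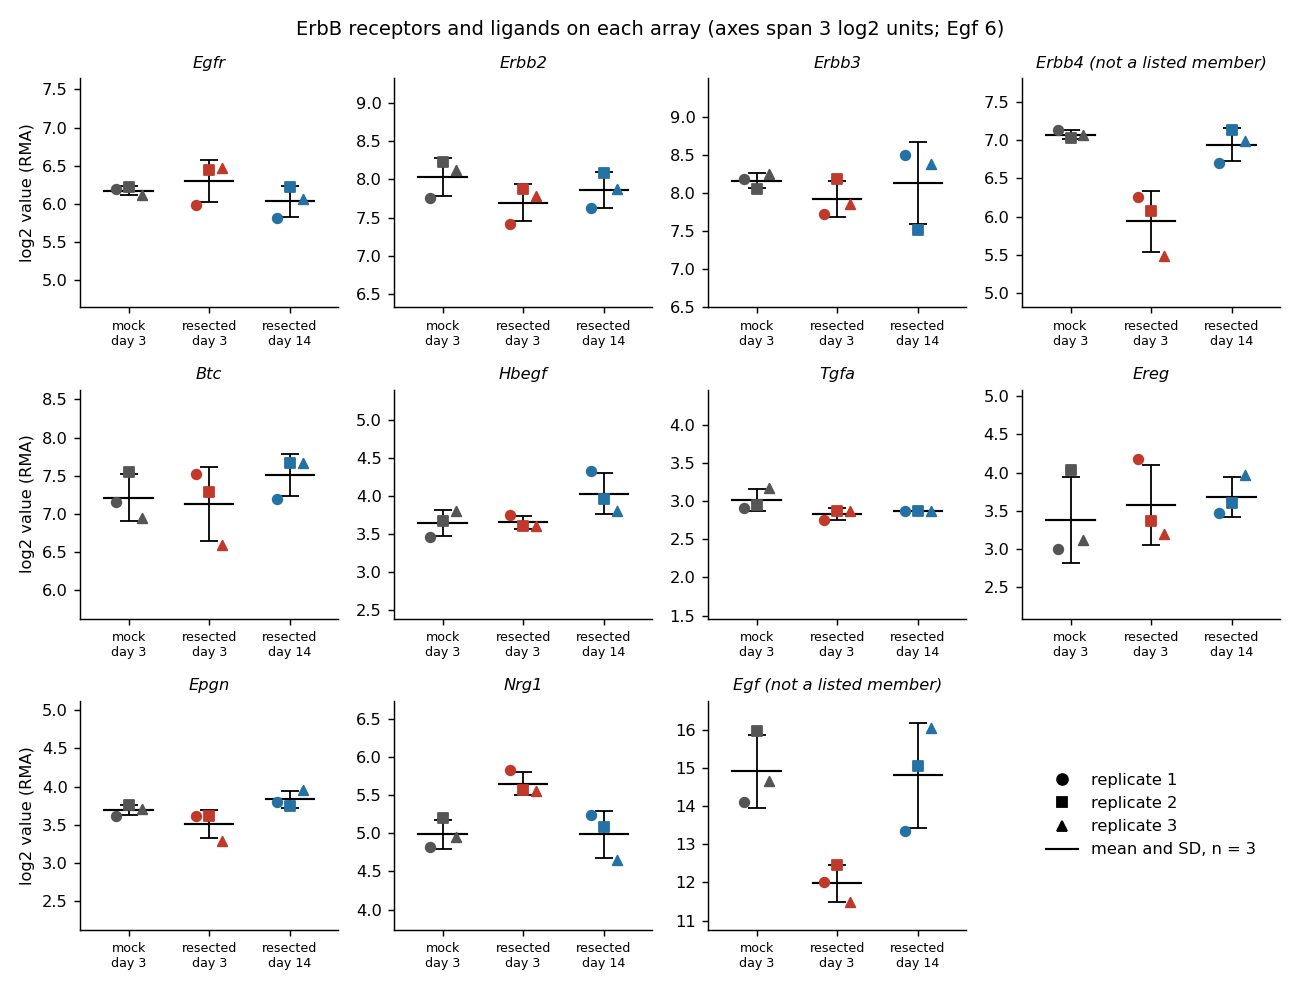
Log2 value (y axis, 3 units per panel, 6 for Egf) of each gene on each array, by group on the x axis; marker shape gives the replicate number, and black lines give the mean and SD of 3 arrays. The day 3 resected arrays of Nrg1 (5.56 to 5.83) lie above the other 6, and those of Erbb4 (5.48 to 6.26) and Egf (11.48 to 12.45) lie below them, while the groups of Egfr, Erbb2, Erbb3, Btc and Ereg overlap.

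Btc, betacellulin, which binds EGFR and ERBB4, was the one EGFR ligand in the list with values above the control median. It read 7.15, 7.55 and 6.94 in mock glands, 7.52, 7.29 and 6.59 in day 3 resected glands, and 7.19, 7.67 and 7.67 in day 14 resected glands. The groups overlapped, and day 3 resected replicate 3 was the lowest of the 9 arrays. The difference from mock was -0.08 ± 0.28 (95% interval -0.68 to 0.52) on day 3 and 0.29 ± 0.28 (-0.30 to 0.89) on day 14. The day 3 value was 0.19 without day 3 resected replicate 3 and 0.08 without mock replicate 2, so its sign was not fixed.

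Hbegf, the heparin-binding ligand, was close to its mock level on day 3 and read somewhat higher on day 14. Values were 3.46, 3.67 and 3.80 in mock glands, 3.75, 3.60 and 3.61 in day 3 resected glands, and 4.33, 3.96 and 3.80 in day 14 resected glands. The day 14 arrays did not overlap with mock, although the lowest of them and the highest mock array both rounded to 3.80. The day 14 difference from mock was 0.39 ± 0.21 (95% interval -0.07 to 0.85; adjusted p = 0.676 by limma), and the day 3 difference was 0.01 ± 0.21 (-0.45 to 0.47). Every Hbegf value lay under the median of the negative controls on its array.

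Tgfa, transforming growth factor alpha, had the narrowest range over the 9 arrays of the measured members. It read 2.91, 2.95 and 3.17 in mock glands, 2.75, 2.87 and 2.87 in day 3 resected glands, and 2.87 on each day 14 array. The SD of the day 14 arrays was 0.0024, and 2 arrays of each resected group held the same value to 4 decimals. The same value on at least 2 arrays was seen for 1123 tested transcript clusters. Mock arrays lay above both resected groups, by 0.18 ± 0.19 on day 3 (difference -0.18, 95% interval -0.59 to 0.23) and 0.14 ± 0.19 on day 14 (difference -0.14, -0.55 to 0.27), and neither difference passed.

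Ereg and Epgn, epiregulin and epigen, are neighbours in the RefSeq gene order of assembly GRCm38.p6, where Areg and Btc follow them with no other protein-coding gene between. Ereg read 3.00, 4.03 and 3.11 in mock glands, 4.17, 3.37 and 3.20 in day 3 resected glands, and 3.48, 3.60 and 3.97 in day 14 resected glands. The groups overlapped, with 1 high array in mock and 1 in day 3 resected glands. Its difference from mock was 0.20 ± 0.32 (95% interval -0.50 to 0.89) on day 3, which became -0.10 without day 3 resected replicate 1, and 0.30 ± 0.32 (-0.39 to 0.99) on day 14.

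Epgn read 3.62, 3.76 and 3.71 in mock glands, 3.62, 3.62 and 3.29 in day 3 resected glands, and 3.80, 3.74 and 3.96 in day 14 resected glands. The day 14 arrays lay above the day 3 resected arrays, with a difference of 0.33 ± 0.20 (95% interval -0.10 to 0.75; adjusted p = 0.417 by limma). Against mock, Epgn differed by -0.18 ± 0.20 (-0.61 to 0.24) on day 3 and 0.14 ± 0.20 (-0.29 to 0.57) on day 14, and the groups overlapped in both cases.

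Egf itself, the ligand that gives the family its name and is stored in granular tubules, is outside the list and passed the test, as none of the 5 measured EGFR ligands of the list did. It read 14.10, 15.98 and 14.66 in mock glands, 12.00, 12.45 and 11.48 in day 3 resected glands, and 13.34, 15.04 and 16.04 in day 14 resected glands. The day 3 resected arrays lay below all others. Egf fell on day 3 (-2.94 ± 0.59, adjusted p = 0.00917 by limma) and was higher by 2.83 ± 0.59 on day 14 than on day 3 after resection (adjusted p = 0.0114). The calls ended without day 3 resected replicate 3 (-2.69, adjusted p = 0.0531, and 2.58, 0.064), and that between the resected groups ended also without day 14 resected replicate 3 (2.21, 0.0519). Of 8 measured granular tubule genes, Egf included, 5 fell on day 3, beside 1.36% of all transcript clusters. The remaining 3 (Klk1, Klk1b22 and Klk1b26) are those at the ceiling on at least 1 array. Means of the 5 genes per array, with Egf among the 5, were 16.06 to 17.16 in mock, 13.70 to 14.99 in day 3 resected and 15.52 to 17.22 in day 14 resected glands. Apart from Egf, group means fell from 16.33 in mock to 15.00 in day 3 resected glands for Klk1b1 and from 19.28 to 17.89 for Klk1b9. They fell from 17.60 to 15.06 for Klk1b16 and from 14.39 to 12.09 for Klk1b27. The part of the shift in these genes in the fall of Egf was not tested, nor was the difference between Egf and the other ligands.

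Nrg1, a neuregulin that signals through ERBB3 and ERBB4 and is known from nerve, mesenchyme and wounds, came closest to the threshold. Its values were 4.82, 5.19 and 4.95 in mock glands, 5.83, 5.57 and 5.56 in day 3 resected glands, and 5.24, 5.09 and 4.65 in day 14 resected glands. All day 3 resected arrays lay above the other 6, and the day 14 arrays overlapped with mock. The difference from mock was 0.67 ± 0.22 on day 3 (95% interval 0.18 to 1.15), with an unadjusted p of 0.0108 and an adjusted p of 0.112 by limma. It was 0.00 ± 0.22 (-0.48 to 0.49) on day 14, and the day 14 arrays stood at -0.66 ± 0.22 relative to day 3 after resection (-1.15 to -0.18; unadjusted p = 0.0111, adjusted p = 0.113).

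The Nrg1 difference kept its direction on day 3 in all 18 alternative settings, from 0.58 to 0.77, and passed in none of them (adjusted p by limma from 0.0915 to 0.261). Between the resected groups it ran from -0.79 to -0.49 (adjusted p from 0.088 to 0.32). The transcript cluster is annotated with 1 transcript, while RefSeq lists 43 for this gene, so types of Nrg1 are not told apart. Of 7 measured genes of Schwann cells and nerve, 0 passed on day 3 by limma. An unadjusted p under 0.05 was found for 4 of the 7, beside 18.6% of all transcript clusters. List means were 6.41 to 6.77 in mock and 6.26 to 6.40 in day 3 resected glands. These means hide opposite shifts, with 3 positive and 4 negative differences. Group means went from 10.34 in mock to 11.42 in day 3 resected glands for Pmp22. They went from 8.15 to 7.15 for Ngfr, from 11.14 to 10.18 for Sox10 and from 6.39 to 5.63 for Mbp. Of the 7, 2 lay below the negative control median on all 9 arrays. The part of the shifts in macrophage and fibroblast genes and in the negative controls in the Nrg1 difference was not tested.

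The other neuregulins did not pass. Against mock, Nrg2 differed by 0.03 ± 0.35 on day 3 and 0.55 ± 0.35 on day 14, with array values from 3.74 to 5.14. Nrg3 differed by -0.08 ± 0.21 and 0.04 ± 0.21, and its values lay below the control median on all 9 arrays. Nrg4, a ligand of ERBB4, differed by -0.12 ± 0.24 and 0.23 ± 0.24.

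From day 3 to day 14 after resection, 7 of 9 members had a positive difference and 2 a negative one, and none passed. Among the receptors the difference was -0.26 ± 0.21 for Egfr (95% interval -0.73 to 0.20), 0.17 ± 0.23 for Erbb2 and 0.21 ± 0.27 for Erbb3. Among the ligands it was 0.38 ± 0.21 for Hbegf (-0.08 to 0.84; adjusted p = 0.378 by limma), 0.38 ± 0.28 for Btc (-0.22 to 0.98) and 0.04 ± 0.19 for Tgfa. Ereg differed by 0.10 ± 0.32, and both Ereg (-0.023) and Tgfa (-0.068) turned negative after quantile normalisation.

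Groups that do not overlap were about as common among the members as in the whole table. On day 3 against mock this held for 2 of 9 members, Nrg1 (higher) and Tgfa (lower), beside 23% of all transcript clusters (11.2% higher and 11.8% lower). On day 14 against mock it held for 2 of 9, Hbegf (higher) and Tgfa (lower), beside 13% (6.03% and 6.99%). Between the resected groups it held for 3 of 9, Hbegf and Epgn (higher on day 14) and Nrg1 (lower), beside 25.4% (12.9% and 12.5%). With 9 members, counts of this size are not a result about the family.

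The wider pathway was described with 5 lists of 93 genes, of which 84 were measured. Over all transcript clusters, 4.92% rose and 1.36% fell on day 3 against mock. Between the resected groups, 1.4% of all transcript clusters were higher on day 14 and 4.88% lower. The list of the receptor and ligands outside the set (Erbb4, Egf, Nrg2, Nrg3 and Nrg4) had 2 of 5 members that fell on day 3 and 0 that rose, as given above. Without day 3 resected replicate 3 this count was 0. Both were higher on day 14 than on day 3 after resection, a count that was 1 without day 3 resected replicate 2 or day 14 resected replicate 2 and 0 without replicate 3 of either resected group.

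Ligand shedding covers the proteases that release the ligands and the proteins that steer them. Of 11 measured genes, 0 passed in any comparison by limma, while 3, 0 and 3 had an unadjusted p under 0.05. The corresponding shares of all transcript clusters were 18.6%, 8.18% and 18.9%. On day 3 against mock the list median was 0.38, beside -0.06 over all transcript clusters. Adam17, the main sheddase of several EGFR ligands, read 9.78, 9.43 and 9.65 in mock and 9.81, 10.10 and 10.90 in day 3 resected glands, a difference of 0.65 ± 0.28 (adjusted p = 0.242). Adam12 differed by 1.23 ± 0.37 (adjusted p = 0.0722), with array values of 3.82 to 3.93 in mock and 4.20 to 6.14 in day 3 resected glands. It lay above the negative control median on 2 of the 9 arrays and above the control 95th percentile on 0. In both genes the day 3 resected arrays lay above mock. Without day 3 resected replicate 1, 1 gene of this list passed on day 3 against mock and 1 between the resected groups.

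Receptor restraint and turnover covers proteins that dampen, internalise or dephosphorylate the receptors. Of 17 measured genes, 2 rose on day 3 and 0 fell, beside 4.92% and 1.36% of all transcript clusters, with a list median of 0.03. On day 14 against day 3 after resection, 0 of 17 passed by limma (5 at an unadjusted p under 0.05, beside 18.9% of all transcript clusters). Sh3kbp1 passed there without mock replicate 1 (-1.13, adjusted p = 0.0122) or mock replicate 3 (-1.13, 0.0436), which made the count 1. The 2 genes that rose on day 3 were Sh3kbp1, an adaptor of receptor endocytosis (1.25 ± 0.32, adjusted p = 0.0351 by limma), and Ptpn1, a tyrosine phosphatase (1.21 ± 0.32, adjusted p = 0.0403). Mock replicate 1 (7.33) was close to the day 3 resected arrays (7.42 to 7.98) for Sh3kbp1. Sh3kbp1 lay above the negative control median on all 9 arrays and above the control 95th percentile on 0. Each lost its call in several fits: Sh3kbp1 in 7 and Ptpn1 in 5 of the 9 without 1 array, with differences of 1.00 to 1.66 and 0.93 to 1.41 and adjusted p up to 0.129 and 0.178. The day 3 count was 0 without mock replicate 2, day 3 resected replicate 3 or day 14 resected replicate 1, and 1 without any 1 of the other 6. Errfi1, a feedback inhibitor of EGFR, differed by -0.19 ± 0.26 on day 3 and 0.09 ± 0.26 on day 14.

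Adaptors and the intracellular relay, which carry the signal from receptor to nucleus, had 25 of 32 genes measured and the rest were not analysed here. On day 3, 1 of 25 fell and 0 rose, beside 1.36% and 4.92% of all transcript clusters, with a median of 0.02. The 1 was Sos2, an activator of Ras (-1.49 ± 0.32, adjusted p = 0.0139 by limma), which read 12.32, 11.64 and 11.31 in mock and 10.62, 10.57 and 9.62 in day 3 resected glands. Leaving out mock replicate 1 ended its call (-1.20, adjusted p = 0.0603), and so did leaving out day 3 resected replicate 3 (-1.16, 0.0672). On day 14 against mock, 0 of 25 passed by limma and 1 had an unadjusted p under 0.05, Pik3r1, a regulatory subunit of PI3 kinase (0.91 ± 0.24, adjusted p = 0.257). The share of all transcript clusters at that unadjusted threshold was 8.18%.

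Transcripts that ERK signalling is known to induce, from this receptor family or from others, were given as a readout list. Of 26 measured genes, 2 rose on day 3 and 0 fell, beside 4.92% and 1.36% of all transcript clusters, with a median of -0.19. At an unadjusted p under 0.05 there were 10 of 26, beside 18.6% of all transcript clusters. The same 2 genes were lower on day 14 than on day 3 after resection, where 10 of 26 had an unadjusted p under 0.05, beside 18.9%. Etv5, a transcription factor, read 8.21, 7.85 and 8.84 in mock, 10.24, 10.09 and 9.67 in day 3 resected, and 8.28, 8.15 and 9.09 in day 14 resected glands. It rose by 1.70 ± 0.31 (adjusted p = 0.00479 by limma) and was then lower by 1.49 ± 0.31 (difference -1.49, adjusted p = 0.011). The day 3 call of Etv5 held in all 18 alternative settings, with an adjusted p of at most 0.0242. Its call between the resected groups ended without day 14 resected replicate 1 (-1.38, adjusted p = 0.0559) or 2 (-1.31, 0.0555).

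Klf10, a transcription factor also induced by TGF-beta, rose by 1.10 ± 0.25 on day 3 (adjusted p = 0.0202 by limma) and differed by -1.26 ± 0.25 between day 14 and day 3 after resection (adjusted p = 0.00847). Klf10 lay above the negative control median on all 9 arrays and above the control 95th percentile on 0. Its day 3 call was lost when replicate 1 or 2 of either group was left out (differences of 0.93 to 1.12, adjusted p from 0.0571 to 0.0765), and its later call held without any 1 array. The list's counts moved with single arrays. On day 3 the count was 1 without mock replicate 2 or day 3 resected replicate 2. Between the resected groups it was 4 without day 3 resected replicate 1 and 1 without day 14 resected replicate 1 or 2. On day 14 against mock, 0 of 26 passed by limma and 5 had an unadjusted p under 0.05, beside 8.18% of all transcript clusters.

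**Figure D4:**
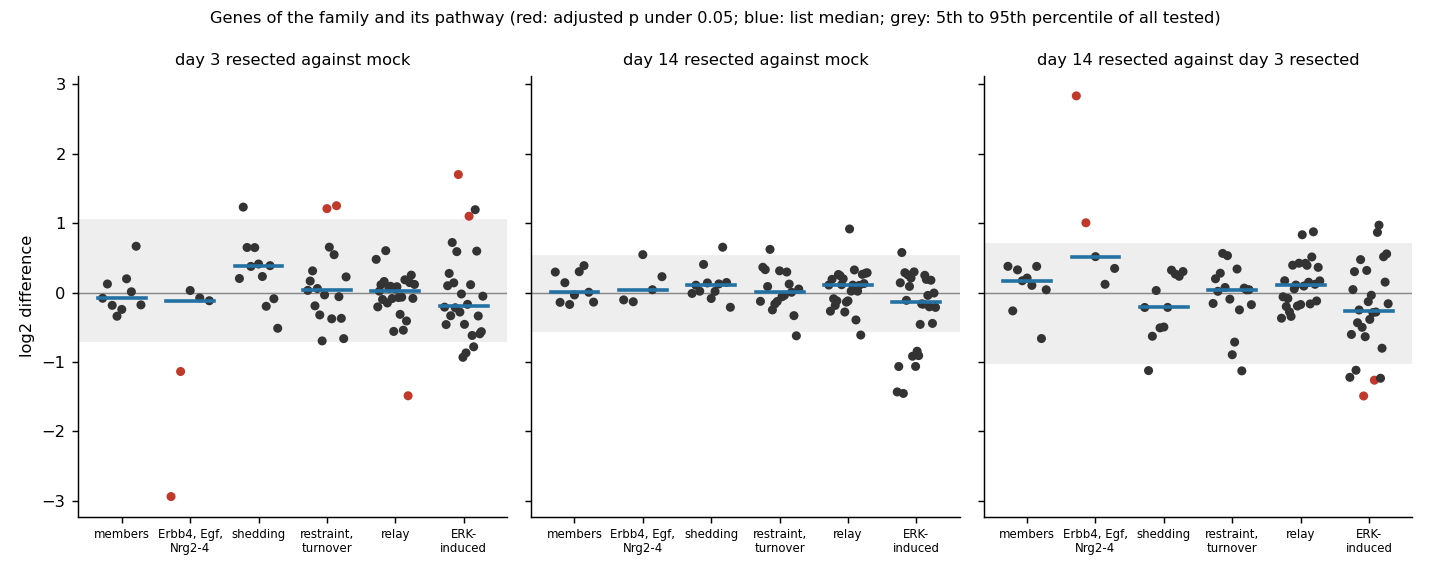
Log2 difference (y axis) of each measured gene of the family and of the 5 pathway lists (x axis) in the 3 comparisons; red points passed at an adjusted p under 0.05, blue lines are list medians, and the grey band is the 5th to 95th percentile of all tested transcript clusters. On day 14 against mock no point is red, and on day 3 the red points are Erbb4 and Egf, Ptpn1 and Sh3kbp1, Sos2, and Etv5 and Klf10.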

How the data were processed

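Per the submitters' processing notes and the series design text, the authors processed the arrays with Transcriptome Analysis Console 4.0 and RMA, which subtracts background, brings arrays to a common distribution and summarises probes. The authors deposited log2 values. Their genome build was not given in the sources used here. Coordinates are therefore left out. RMA compresses differences of transcript clusters near background. The table of 28846 rows holds 6640 control rows, which were left out of tests. Of 22206 tested transcript clusters, 19572 carry 1 symbol (RefSeq names of GRCm38.p6, found through Entrez identifiers).

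limma 3.58.1 in R 4.3.3 fitted all 9 arrays with group means and empirical Bayes moderated variances (6 residual and 6.63 prior degrees of freedom). Tests were two-sided, adjusted by Benjamini-Hochberg over all transcript clusters within each comparison, at 0.05. The script was tested on simulated data. The labels call the replicates biological without naming the mice, so p-values measure the spread between these samples. The number of arrays limits the precision.

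Members and lists were chosen with earlier results of these data known. Named were all members, all genes of the relatives' list, and up to 4 genes per other list and comparison past the threshold. A search for genes of like pattern was set only for members that passed, and none did. Genes named beyond this rule were picked after their values were seen. These were Adam17, Adam12, Errfi1, Pik3r1 and a number of markers. The markers were Scnn1g, Krt19, Foxi1, Elf5, Cftr, Dcpp3, Galnt12, Pmp22, Ngfr, Sox10, Mbp and the Klk1 genes. Marker lists not described in the report gave, on day 3 against mock, 2 of 12 serous acinar (4 of the 12 at the ceiling on all 9 arrays), 1 of 9 basal and myoepithelial and 1 of 6 skin keratinocyte genes that fell. In that comparison 4 of 10 neutrophil, 3 of 9 mast cell, 2 of 6 T cell and 1 of 6 lymph node genes rose. In the lists for endothelium (8 genes), adipocytes (7), skeletal muscle (7) and sublingual mucous cells (2), 0 passed by limma (2, 0, 0 and 1 at an unadjusted p under 0.05). Over all transcript clusters on day 3 against mock, 4.92% rose, 1.36% fell and 18.6% had an unadjusted p under 0.05.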

Additional observations from a re-analysis of the deposited data

Results flagged for a closer look

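All 9 measured members and the 84 measured genes of the pathway lists were searched. Of these, 4 had a difference from mock that itself differed between day 3 and day 14. The mock arrays cancel in this test, which is that of the resected groups against each other (limma, Benjamini-Hochberg adjustment, 3 arrays a group). In that comparison 6.28% of all transcript clusters were called. For Erbb4 the day 14 difference minus the day 3 difference was 1.00 (adjusted p = 0.0227). For Egf it was 2.83 (adjusted p = 0.0114). For Etv5 it was -1.49 (adjusted p = 0.011), and for Klf10 it was -1.26 (adjusted p = 0.00847). None of the 9 measured members had such a difference by limma, and 1 of them, Nrg1, had an unadjusted p under 0.05.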

How the results depend on the processing

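The count of members past the threshold was 0 in all 3 comparisons under each of the 18 alternatives, with a smallest adjusted p by limma of 0.088 over all member differences; where the dimmest 30% of transcript clusters were left out, 6 members remained in the table. Signs of small differences turned. Quantile normalisation gave Egfr -0.0309 on day 3 against mock, Nrg1 -0.0177 on day 14 against mock, and Ereg -0.0229 and Tgfa -0.0676 between the resected groups. Centring on array medians gave Hbegf -0.0635 and Nrg2 -0.0453 on day 3 and Nrg1 -0.0141 on day 14, and array weights gave Egf 0.0203 on day 14. The cause was not tested.

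Without 1 array, signs turned on day 3 against mock for Ereg (-0.10 to 0.52), Hbegf (-0.0826 to 0.0905), Btc (-0.28 to 0.19), Nrg2 (-0.26 to 0.44), Nrg3 (-0.22 to 0.069) and Nrg4 (-0.26 to 0.0165). On day 14 against mock they turned for Erbb3 (-0.22 to 0.27), Nrg1 (-0.12 to 0.18), Egf (-0.72 to 0.63), Nrg3 (-0.0478 to 0.11), Sh3kbp1 (-0.13 to 0.53), Etv5 (-0.0823 to 0.48) and Klf10 (-0.33 to 0.0174). Between the resected groups they turned for Ereg (-0.0886 to 0.40), Tgfa (-0.0022 to 0.0607) and Nrg3 (-0.0286 to 0.26). None of these differences had passed.

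Over all transcript clusters, same-numbered arrays did not deviate together (correlations of -0.087 to 0.051). This cannot exclude a pairing or a shared batch that affects few genes. With the replicate block, 0 members passed in each comparison; Sh3kbp1 lost its day 3 call (1.25, adjusted p = 0.0647) and Ptpn1 gained one between the resected groups (-0.90, 0.0313). Day 3 calls ended for Sh3kbp1 with quantile normalisation (1.11, 0.0572), for Ptpn1 with median centring (1.13, 0.0525), and for both with only the groups compared (0.0819 and 0.0613). The count for receptor restraint and turnover on day 3 was then 1, 1 and 0, against 2, and with the replicate block it was 1. Between the resected groups this count was 0, and 1 without the dimmest 30%, with only the groups compared, with robust variances, with the replicate block, or without mock replicate 1 or 3, and 2 with array weights. The relay list there had 0, and 1 with either scaling, a mean-variance trend or array weights. The 95% intervals of the members reached 0.41 to 0.69 log2 units to either side at 3 arrays a group, and 4 of 9 members lay below the control median on all arrays, which limits what can be seen for them.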

Other observations

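The transcript of the ERK list that varied most between arrays of 1 group was Dusp1, a phosphatase that is quickly induced by stress and growth factors. It read 10.42, 15.58 and 8.46 in mock glands, 9.18, 10.66 and 14.00 in day 3 resected glands, and 13.19, 9.41 and 7.58 in day 14 resected glands. Mock replicate 2 was the highest of the 9 arrays for Dusp1, and so it was for Jun (10.22), Ier2 (7.13), Ier3 (10.31) and Dusp5 (8.89), 5 of the 6 genes of the list of 26 that peaked there. By this count mock replicate 2 did not stand out. Day 14 resected replicate 3 was also the highest array for 6 of the 26 genes, and day 3 resected replicate 1 for 5. Dusp1, Jun, Ier2, Ier3 and Dusp5 were picked after their values were seen. The SE of a group difference was 1.72 log2 units for Dusp1, against 0.19 to 0.32 for the members, and the differences of Dusp1 between the groups, -0.21 on day 3 and -1.43 on day 14 against mock, did not pass.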
